A study of Arabidopsis thaliana with 30 samples.

Results

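The genes described here are 7 noncoding RNA genes of Arabidopsis thaliana, out of 32832 genes counted in RNA-seq 2 and 34262 in RNA-seq 1: the small nucleolar RNA (snoRNA) genes AT1G08643, AT4G03915 and AT3G02445 and the noncoding genes AT5G01775, AT4G31408, AT5G15845 and AT2G07042. They were picked as noncoding loci with higher counts in the mutants hen2-2, se-2 or se-2 hen2-2 than in WT, so their differences from WT are given below as a description, with no test. RNA-seq 2 measured se-2 hen2-2, se-2, hen2-2 and WT plants grown at 20 °C, and RNA-seq 1 measured hen2-2 and WT plants grown at 22 °C. All were Col-0 plants aged 4 weeks, the RNA came from leaves and was depleted of ribosomal RNA before stranded libraries were made, and each genotype had 3 biological replicates. The hen2-2 allele is a T-DNA insertion in HEN2 (line GK774_H07), se-2 is a mutant allele of SERRATE (SE), and se-2 hen2-2 plants carry both. Levels are CPM, counts scaled to the size of each library with TMM factors. A 12-library small RNA data set of the series was not analysed here.

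HEN2 is a nucleoplasmic RNA helicase that forms the NEXT complex together with RBM7 and a ZCCHC8 protein, and NEXT hands unwanted transcripts to the nuclear exosome, which degrades them from the 3′ end. SE is a zinc finger protein that works with the nuclear cap binding complex and the miRNA processing machinery. Most snoRNAs guide the chemical modification of ribosomal RNA: C/D box snoRNAs, named for their C and D sequence boxes, guide methylation of the ribose, and H/ACA box snoRNAs, which end in ACA close to the 3′ end, guide pseudouridylation. In plants many snoRNAs are cut out of longer transcripts, and both the by-products and long noncoding RNAs are known substrates of nuclear RNA decay.

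HEN2 had 2.29, 2.45 and 4.36 CPM in se-2 hen2-2, 6.83, 8.67 and 8.07 CPM in se-2, 2.30, 2.58 and 2.94 CPM in hen2-2 and 6.28, 8.11 and 6.61 CPM in WT. SE had 2.61, 3.02 and 3.26 CPM in se-2 hen2-2, 2.71, 2.45 and 3.07 CPM in se-2, 4.78, 5.46 and 6.23 CPM in hen2-2 and 5.59, 5.92 and 6.84 CPM in WT. Each transcript was lower in every library of the lines that carry its mutation than in every other library, and neither was absent. RNA-seq 2 libraries held 47.7 to 157 M (mega) counts and RNA-seq 1 libraries 62.6 to 105 M, and the chloroplast share of counts was 50.6 to 72.2% there against 77.6 to 81.5% in RNA-seq 1. In RNA-seq 2, 6 libraries exceeded 100 M counts (se-2 hen2-2 replicate 1, se-2 replicate 1, hen2-2 replicates 1 and 2, WT replicates 1 and 2). Summed over the other 284 snoRNA genes, these 6 libraries had 1360 to 2260 CPM and the other 6 had 2090 to 3520 CPM. A fit with a term for depth is given below where it changed a call. Ratios within deep and within shallow libraries are given for snoR146, snoR132, AT4G31408 and AT2G07042. The summed level of 5 leaf marker genes was 1640 to 2770 CPM in se-2 hen2-2, 2320 to 3100 CPM in se-2, 2680 to 4210 CPM in hen2-2 and 2590 to 3880 CPM in WT, while root hair markers stayed at or under 0.0322 CPM. In such bulk samples, fewer cells with a transcript and less transcript per cell cannot be told apart.

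The 3 snoRNA genes are shown with their closest relatives in the genome, because the relatives were not used to choose them and their levels are compared below. The relatives were looked for after the data had been seen. Sequences are from the RefSeq TAIR10.1 genome, written 5′ to 3′ on the gene's own strand. Capitals mark the C box (ATGATGA, or GTGATGA) near the 5′ end, the D box (CTGA) near the 3′ end, or the ACA that ends 3 bases before the 3′ end. AT1G08643 is annotated as snoR146 (chr1:23701178-23701304, plus strand, 127 bp). It resembles SNOR105 (AT1G29071, chr1:10151668-10151774, minus strand) and SNOR108 (AT5G41471, chr5:16598796-16598905, plus strand), which the annotation describes as predicted C/D box snoRNAs with no known target.
snoR146, AT1G08643: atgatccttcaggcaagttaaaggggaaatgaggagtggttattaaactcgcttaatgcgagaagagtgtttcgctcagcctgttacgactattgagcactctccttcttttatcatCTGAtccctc
SNOR105: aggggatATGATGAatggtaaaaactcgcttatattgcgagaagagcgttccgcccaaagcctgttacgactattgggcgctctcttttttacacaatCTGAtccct
SNOR108: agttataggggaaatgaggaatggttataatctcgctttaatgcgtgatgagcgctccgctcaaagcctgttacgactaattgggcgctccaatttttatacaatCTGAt

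Over the aligned bases snoR146 matched SNOR105 at 88 of 103 positions (85.4%) and SNOR108 at 89 of 106 (84.0%), and the relatives matched each other at 89 of 102 (87.3%). All 3 carry a D box near the 3′ end, and no C box of these letters was found in the first 20 bases of snoR146 or SNOR108. Among all 287 annotated snoRNA genes, 39.0% held a C box in the first 20 bases together with a D box in the last 15.

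The 3 family members also share a promoter layout. The run of 10 bases held by the most snRNA promoters upstream of the start, TCCCACATCG, has the letters of the upstream sequence element of plant snRNA genes. Searched on both strands, it was found in 36.6% of snRNA promoters, in 1.39% of snoRNA promoters (4 of 287) and in 0.253% of all 37897 promoters (250 bases before to 50 after the annotated start). In AT1G08643, SNOR105 and SNOR108 it was followed after 33 or 34 bases by TATA, a spacing seen in 28.0% of snRNA promoters, in these 3 snoRNA promoters alone (1.05%) and in 0.106% of all promoters. This search was added after the sequences had been seen. The stretch from 10 bases before the element to the base before the annotated start is shown with the element and TATA in capitals, together with that of U4atac, a spliceosomal snRNA gene that comes up again below.
AT1G08643, chr1:23701089-23701177, plus strand: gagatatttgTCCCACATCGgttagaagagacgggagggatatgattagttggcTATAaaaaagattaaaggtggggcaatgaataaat
SNOR105, chr1:10151775-10151881, minus strand: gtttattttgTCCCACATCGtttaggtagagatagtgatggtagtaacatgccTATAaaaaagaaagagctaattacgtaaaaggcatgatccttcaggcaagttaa
SNOR108, chr5:16598693-16598795, plus strand: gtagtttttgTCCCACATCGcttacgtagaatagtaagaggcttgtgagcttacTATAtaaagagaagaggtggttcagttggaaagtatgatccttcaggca
U4atac, chr4:9096277-9096374, plus strand: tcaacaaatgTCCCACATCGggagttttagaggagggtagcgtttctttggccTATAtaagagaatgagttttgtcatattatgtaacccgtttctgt

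The first 15 bases of annotated snoR146, atgatccttcaggca, also stand 21 bases upstream of the annotated start of SNOR105 and 15 bases upstream of that of SNOR108. Counted from the TATA, these 15 bases begin after 35 bases in snoR146, 33 in SNOR105 and 34 in SNOR108. The annotation itself describes the 5′ part of SNOR105 and SNOR108 as incomplete, so part of their transcripts may lie outside the counted interval. Of the motifs searched in all 7 promoters, the site II element (TGGGCC or TGGGCT, both strands) was found in 5 of 7, against 19.3% of all promoters and 17.8% of snoRNA promoters. The telo box (AAACCCTA, both strands) was found in AT1G08643 alone, against 6.17% of all promoters and 27.5% of snoRNA promoters.

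AT4G03915 is annotated as U19-2 (chr4:687715-687867, plus strand, 153 bp). It carries the ACA of an H/ACA box snoRNA and lies wholly inside the long noncoding gene AT4G03905 on the same strand. AT3G02445 is annotated as snoR132 (chr3:3628138-3628219, minus strand, 82 bp), a C/D box snoRNA 38 bp from snoR131 (AT3G02435, chr3:3628023-3628099, minus strand). They are shown with U19 (AT5G06115, chr5:16424246-16424389, plus strand) and snoR131.
U19-2, AT4G03915: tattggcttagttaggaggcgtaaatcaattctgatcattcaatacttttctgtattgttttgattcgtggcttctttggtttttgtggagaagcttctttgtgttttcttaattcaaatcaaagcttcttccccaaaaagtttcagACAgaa
U19, AT5G06115: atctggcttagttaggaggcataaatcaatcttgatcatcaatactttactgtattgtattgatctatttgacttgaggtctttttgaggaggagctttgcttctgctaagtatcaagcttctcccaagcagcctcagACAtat
snoR132, AT3G02445: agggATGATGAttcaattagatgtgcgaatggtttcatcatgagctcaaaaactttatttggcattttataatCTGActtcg
snoR131, AT3G02435: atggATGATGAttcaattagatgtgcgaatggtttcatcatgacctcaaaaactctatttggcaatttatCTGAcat

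U19-2 and U19 matched at 117 of 137 aligned bases (85.4%), and snoR132 and snoR131 at 72 of 77 (93.5%). Reads from copies as alike as snoR132 and snoR131 can be split between them by the counting, so their separate levels are uncertain. An ACA that ends 3 bases before the 3′ end was present in 18.1% of annotated snoRNA genes. An H box (ANANNA, N for any base) was also searched in the middle of the gene and was not found in U19-2. That ACA together with such an H box was present in 7.32% of annotated snoRNA genes.

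snoR146 had 32.0, 59.5 and 47.8 CPM in se-2 hen2-2, 5.69, 16.8 and 14.3 CPM in se-2, 26.7, 27.2 and 44.6 CPM in hen2-2 and 2.81, 2.70 and 5.99 CPM in WT. Its order was se-2 hen2-2 (46.5 ± 13.8 CPM), hen2-2 (32.8 ± 10.2), se-2 (12.3 ± 5.83) and WT (3.83 ± 1.87, SD, n = 3 each), with overlap between se-2 hen2-2 and hen2-2 and between se-2 and WT. Relative to WT, the log2 fold change of snoR146 was 3.60 ± 0.47 in se-2 hen2-2, 1.68 ± 0.44 in se-2 and 3.10 ± 0.46 in hen2-2 (SE). In every genotype a library under 100 M counts was the highest. Within the deeper libraries alone the log2 ratio to WT was 3.49 in se-2 hen2-2, 1.02 in se-2 and 3.24 in hen2-2. Within the shallower ones it was 3.14 in se-2 hen2-2, 1.36 in se-2 and 2.88 in hen2-2 (log2 of CPM + 0.1).

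U19-2 had 27.3, 32.5 and 35.0 CPM in se-2 hen2-2, 13.0, 17.4 and 20.2 CPM in se-2, 21.0, 27.9 and 28.3 CPM in hen2-2 and 9.95, 13.3 and 12.1 CPM in WT. The order of genotypes was that of snoR146 but the range was narrower. The level over WT was 2.68-fold in se-2 hen2-2, and the log2 fold change was 0.52 ± 0.20 in se-2 and 1.13 ± 0.20 in hen2-2. All se-2 hen2-2 and hen2-2 libraries lay above all WT libraries, and se-2 overlapped WT.

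snoR132 was the least abundant snoRNA of the 3, with 0.715, 2.64 and 1.95 CPM in se-2 hen2-2, 0.260, 1.08 and 0.749 CPM in se-2, 0.539, 0.592 and 2.18 CPM in hen2-2 and 0.139, 0.0986 and 0.277 CPM in WT. The mutants overlapped one another, the lowest se-2 library lay below the highest WT library, and hen2-2 replicate 3 was far above the other hen2-2 libraries. The log2 fold change of hen2-2 against WT was 2.70 ± 0.77 with this library and 1.76 without it. It was 3.39 ± 0.79 in se-2 hen2-2 and 2.05 ± 0.76 in se-2. Within deep libraries the log2 ratio to WT (CPM + 0.1) was 1.9 in se-2 hen2-2, 0.72 in se-2 and 1.61 in hen2-2. Within shallow ones it was 2.67 in se-2 hen2-2, 1.43 in se-2 and 2.6 in hen2-2. The added 0.1 lowers these ratios where WT is this low.

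AT5G01775 (chr5:3343190-3343998, plus strand, 809 bp, 2 exons) is a long noncoding gene that spans the snoRNA genes snoR141 (AT5G01785) and SNOR77 (AT5G10572, an H/ACA box snoRNA) on the same strand, an arrangement typical of a snoRNA host transcript. It had 1.70, 3.34 and 3.06 CPM in se-2 hen2-2, 0.318, 0.170 and 0.795 CPM in se-2, 1.34, 1.5 and 2.12 CPM in hen2-2 and 0.218, 0.334 and 0.244 CPM in WT. Thus se-2 overlapped WT while se-2 hen2-2 and hen2-2 lay above both, with log2 fold changes against WT of 3.33 ± 0.53 in se-2 hen2-2, 0.67 ± 0.51 in se-2 and 2.62 ± 0.52 in hen2-2.

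AT4G31408 (chr4:15241687-15242987, minus strand, 1301 bp, 3 annotated transcripts) is a noncoding gene of no assigned function. It had 10.9, 11.8 and 9.93 CPM in se-2 hen2-2, 0.895, 0.650 and 0.535 CPM in se-2, 3.30, 3.61 and 1.53 CPM in hen2-2 and 0.684, 0.614 and 1.14 CPM in WT. Here se-2 was not above WT (log2 fold change -0.20 ± 0.35), whereas hen2-2 was higher by 1.81 ± 0.34 and se-2 hen2-2 by 3.76 ± 0.37. The lowest hen2-2 value came from the shallow replicate 3. Within deep libraries the log2 ratio of hen2-2 to WT was 2.25 and within shallow ones it was 0.39, while that of se-2 hen2-2 to WT was 3.88 within deep and 3.14 within shallow libraries.

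AT5G15845 (chr5:5173081-5178291, plus strand, 5211 bp, 5 annotated transcripts) is a long noncoding gene annotated as a natural antisense transcript of COL1 (CONSTANS-like 1), and its 5′ end touches CONSTANS (CO), the photoperiod regulator of flowering. It had 5.21, 3.70 and 5.61 CPM in se-2 hen2-2, 2.25, 3.95 and 3.04 CPM in se-2, 0.509, 0.358 and 0.726 CPM in hen2-2 and 0.179, 0.0986 and 0.212 CPM in WT. It is the gene of the 7 whose level in se-2 stood far above that in hen2-2, with log2 fold changes against WT of 4.93 ± 0.41 in se-2 hen2-2, 4.27 ± 0.40 in se-2 and 1.71 ± 0.38 in hen2-2. The libraries of the 4 genotypes overlapped only between se-2 hen2-2 and se-2.

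AT2G07042 (chr2:2919953-2922249, minus strand, 2297 bp) is a noncoding gene with no assigned function. It had 0.876, 1.68 and 0.956 CPM in se-2 hen2-2, 0.642, 1.19 and 1.57 CPM in se-2, 1.15, 1.44 and 1.57 CPM in hen2-2, and 0.268 and 0.144 CPM in WT replicates 1 and 2. WT replicate 3 had 0 counts among 56.7 M. Counts of RNA-seq 2 derive from coverage and are not single fragments, so no upper limit is given for this 0. The 3 mutants overlapped one another and all 9 of their libraries were above all WT libraries. The log2 fold change was 3.01 ± 0.78 in se-2 hen2-2, 2.97 ± 0.78 in se-2 and 3.26 ± 0.78 in hen2-2. Without WT replicate 1 these became 3.81, 3.77 and 4.06. Within deep libraries the log2 ratio to WT (CPM + 0.1) was 1.67 in se-2 hen2-2, 1.28 in se-2 and 2.19 in hen2-2. Within shallow ones, where the only WT library is the one at 0, it was 3.83, 3.89 and 4.06 in the same order. The added 0.1 lowers these ratios where WT is this low. The gene lies 17932 bp from HEN2 (chr2:2894904-2902020) with 4 genes between them. Whether the insertion in HEN2 affects AT2G07042 in hen2-2 was not tested.

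**Figure D1:**
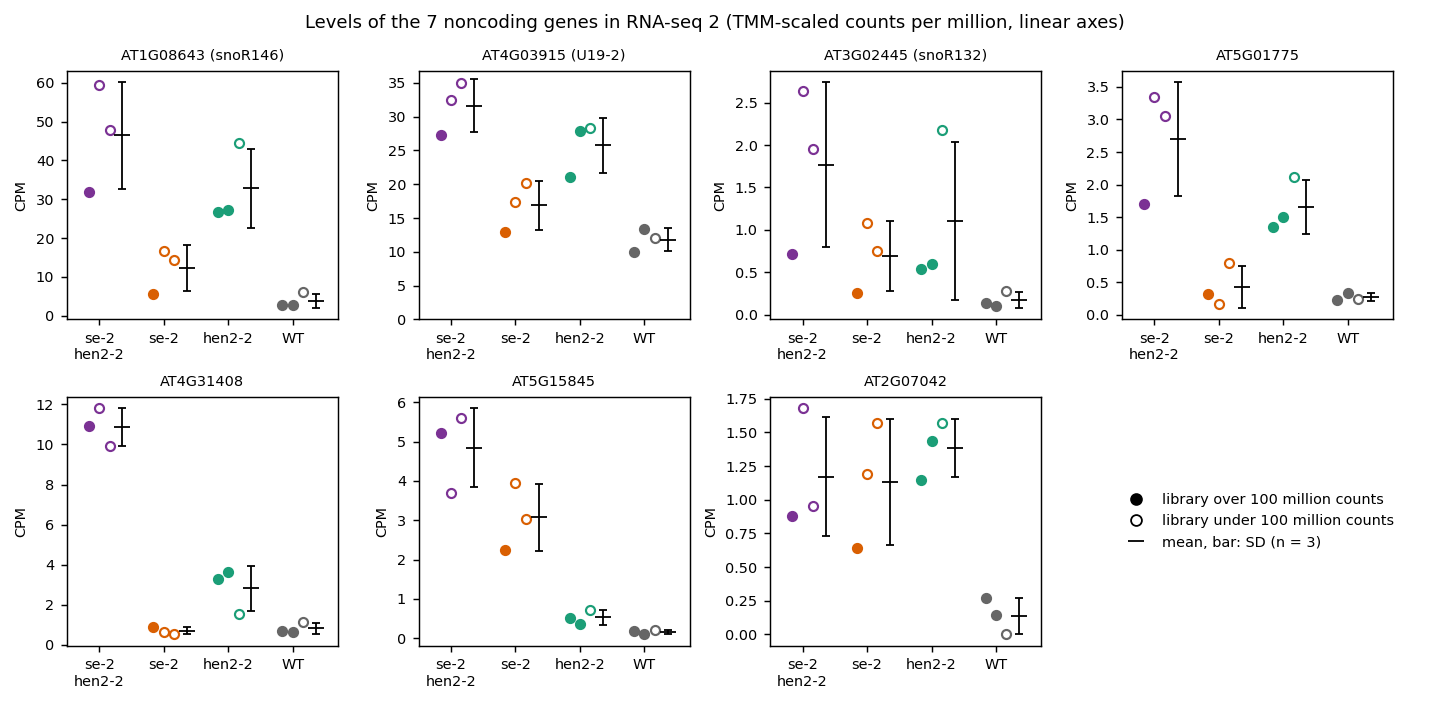
Levels of the 7 genes in RNA-seq 2. Each panel is a gene, the y axis is CPM on a linear scale, points are libraries (filled, over 100 M counts), and the bar is the mean ± SD of 3. AT4G31408 was highest in se-2 hen2-2 (10.9 ± 0.916 CPM), AT5G15845 was high wherever se-2 was present, and AT2G07042 was at a like level in all 3 mutants.

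The genes were then compared between mutants, which asks what each mutation added to the other. These comparisons use the same mutant libraries that chose the genes, but not WT, which enters only the interaction given last. The choice can favour a gene that is high in a mutant. The calls, medians and p-values of the 7 are therefore a description and not independent evidence. The test was edgeR's quasi-likelihood F test (two-sided, all 12 libraries in the fit), called at a Benjamini-Hochberg adjusted p under 0.05 over 19454 genes. In se-2 hen2-2 against se-2, 2 of the 7 genes were called higher and none lower, where 0.725% of all genes were called higher. The median log2 fold change was 1.34 over the 7 and 0.01 over all genes. AT4G31408 was higher by 3.96 ± 0.37 (log2 ± SE, adjusted p = 0.0008) and AT5G01775 by 2.66 ± 0.52 (adjusted p = 0.039).

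In the same comparison snoR146 differed by 1.92 ± 0.44 (adjusted p = 0.073) and U19-2 by 0.91 ± 0.20 (adjusted p = 0.07), both with se-2 hen2-2 above se-2 in every library. Same-numbered replicates of these genotypes deviated together, but they also matched in depth. With the replicate number as a block over all 12 libraries edgeR called both, snoR146 at 1.99 (adjusted p = 0.0023) and U19-2 at 0.92 (adjusted p = 0.0013). With a term for libraries over 100 M counts both were called as well (edgeR, adjusted p = 0.00029 for snoR146 and 0.016 for U19-2). Libraries did not overlap for 4 of the 7 genes, all higher in se-2 hen2-2, against 8.55% of all genes higher and 7.27% lower. snoR132 (1.34 ± 0.72, adjusted p = 0.55), AT5G15845 (0.66 ± 0.33, adjusted p = 0.52) and AT2G07042 (0.04 ± 0.70, adjusted p = 0.99) were not called. AT5G01775 is the less stable call: it was lost in 9 of 12 fits that left out a library (adjusted p up to 0.13) and kept without se-2 hen2-2 replicate 1, hen2-2 replicate 1 or se-2 replicate 3. It was also lost with se-2 hen2-2 and se-2 alone in the fit (adjusted p = 0.19).

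In se-2 hen2-2 against hen2-2, 2 of the 7 were called higher, against 0.38% of all genes, and the median was 0.69 against 0.01. AT5G15845 was higher by 3.21 ± 0.37 (adjusted p = 0.0045) and AT4G31408 by 1.94 ± 0.34 (adjusted p = 0.028). The libraries of these 2 genes did not overlap between the genotypes, both higher in se-2 hen2-2, against 7.96% of all genes higher and 7.86% lower. AT5G15845 was called in all 19 alternative fits, whereas AT4G31408 was called in 11 of 19 and was lost without any one of the 3 libraries of either genotype or without se-2 replicate 2 (adjusted p up to 0.13). The call of AT4G31408 was also lost with se-2 hen2-2 and hen2-2 alone in the fit (edgeR, adjusted p = 0.11). The 3 snoRNA genes differed by 0.30 to 0.69, AT5G01775 by 0.71 ± 0.48 and AT2G07042 by -0.25 ± 0.70, none of them called (adjusted p 0.70 to 0.96).

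In se-2 against hen2-2 the genes went apart. AT5G15845 was higher in se-2 by 2.56 ± 0.36 (adjusted p = 0.0096, background 0.108%) and AT4G31408 was lower in se-2 (-2.01 ± 0.35, adjusted p = 0.029, background 0.36%). The call of AT4G31408 held in 12 of 19 alternative fits and was lost without se-2 hen2-2 replicate 2, hen2-2 replicates 1 or 2, or any se-2 library (adjusted p up to 0.13). That of AT5G15845 held in 16 of 19 and was lost without hen2-2 replicates 1 or 2 (adjusted p up to 0.055). Both calls were also lost with se-2 and hen2-2 alone in the fit (edgeR, adjusted p = 0.18 for AT4G31408 and 0.08 for AT5G15845). snoR146 (-1.42 ± 0.43, adjusted p = 0.3), U19-2 (-0.61 ± 0.20, adjusted p = 0.39) and AT5G01775 (-1.95 ± 0.51, adjusted p = 0.18) were not called by edgeR. snoR146 was called with the depth term (adjusted p = 0.00072) and AT5G01775 by DESeq2 (adjusted p = 0.013). Every se-2 library of the 3 genes lay below every hen2-2 library, as for 7.52% of all genes. For AT5G15845 every se-2 library lay above every hen2-2 library, as for 6.18% of all genes. snoR132 (-0.65 ± 0.71) and AT2G07042 (-0.29 ± 0.70) overlapped between the genotypes.

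The interaction, which asks whether the change in se-2 hen2-2 differs from the sum of both single changes on the log2 scale, was called for none of the 7 by edgeR. It also uses the WT libraries, whose low values helped to choose the genes, so its values for the 7 are a description too. Of the 7, 2 were at an unadjusted p under 0.05 there, and DESeq2 called 1 (AT4G31408, adjusted p = 0.011). Over all genes 0.0103% were called higher and 0.00514% lower. For AT4G31408 the interaction was 2.14 ± 0.48 (edgeR, adjusted p = 0.26), and for AT2G07042 it was -3.22 ± 1.04 (adjusted p = 0.61). For snoR146, U19-2 and snoR132 it was between -1.36 and -0.22, for AT5G15845 -1.06 ± 0.50 and for AT5G01775 0.04 ± 0.74.

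**Figure D2:**
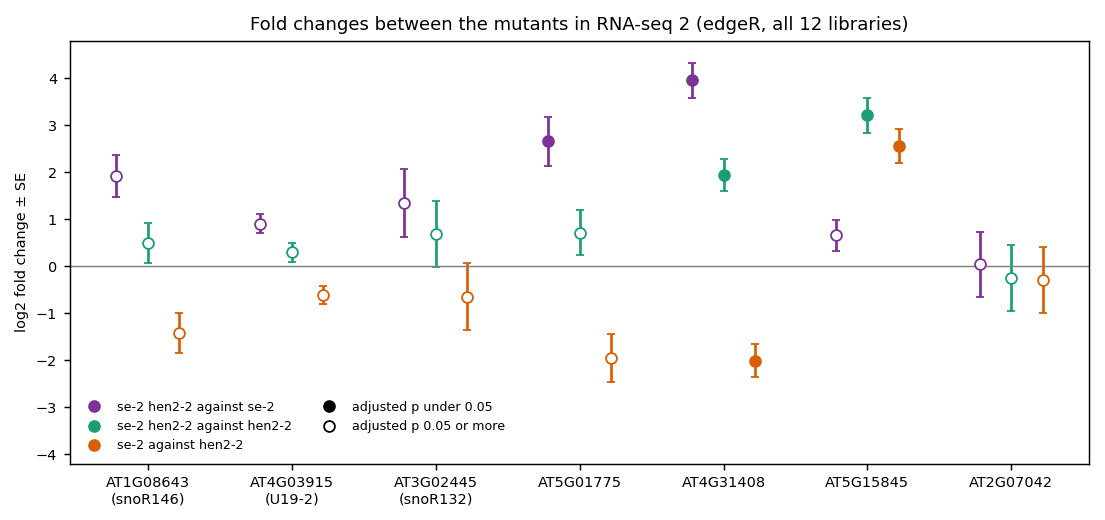
Differences of the 7 genes between mutants in RNA-seq 2. The y axis is the log2 fold change with its SE as the bar, colours are the 3 comparisons and filled points have an adjusted p under 0.05. AT4G31408 lay at 3.96, 1.94 and -2.01, AT5G15845 at 0.66, 3.21 and 2.56, and AT2G07042 stayed near 0 in all 3.

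RNA-seq 1, with other plants, another temperature and reads assigned to transcripts instead of the genome, gave levels of 6 of the 7 genes in hen2-2 and WT. It also belongs to the rule that chose the genes. snoR132 had 0 reads in all 6 libraries, which by counting error alone allows 0.0284 to 0.0479 CPM (3 reads). Its effective length was only 14.0 to 16.1 bases there, so this 0 sets no limit on the amount of its RNA. snoR146 had 1.04, 0.831 and 1.2 CPM in hen2-2 and 0.0679, 0.257 and 0.374 CPM in WT. U19-2 had 0.119, 0.159 and 0.166 CPM in hen2-2 and 0.0453, 0.121 and 0.105 CPM in WT, and it alone overlapped, on 12.4 to 18.3 estimated reads in hen2-2 and 3.95 to 7.76 in WT.

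AT4G31408 had 5.87, 7.49 and 7.94 CPM in hen2-2 and 0.849, 0.878 and 1.11 CPM in WT in RNA-seq 1. AT5G01775 had 1.04, 1.23 and 1.26 CPM in hen2-2 and 0.113, 0.136 and 0.120 CPM in WT. AT2G07042 had 1.51, 1.76 and 1.86 CPM in hen2-2 and 0.283, 0.242 and 0.359 CPM in WT. AT5G15845 had 0.945, 0.899 and 0.948 CPM in hen2-2 and 0.136, 0.166 and 0.225 CPM in WT. The libraries of these 4 genes did not overlap. The log2 fold changes were 3.25 ± 0.21 (AT5G01775), 2.91 ± 0.19 (AT4G31408), 2.53 ± 0.21 (AT2G07042), 2.41 ± 0.24 (AT5G15845), 2.17 ± 0.51 (snoR146) and 0.74 ± 0.45 (U19-2). Libraries did not overlap for 5 of the 6 genes, all higher in hen2-2, against 11.2% of all genes higher and 8.64% lower. In RNA-seq 2 this held for 7 of 7 genes in hen2-2, against 7.06% of all genes higher and 5.81% lower than WT, and for 7 of 7 in se-2 hen2-2, against 11.2% higher and 9.82% lower. These counts restate the choice of the genes.

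**Figure D3:**
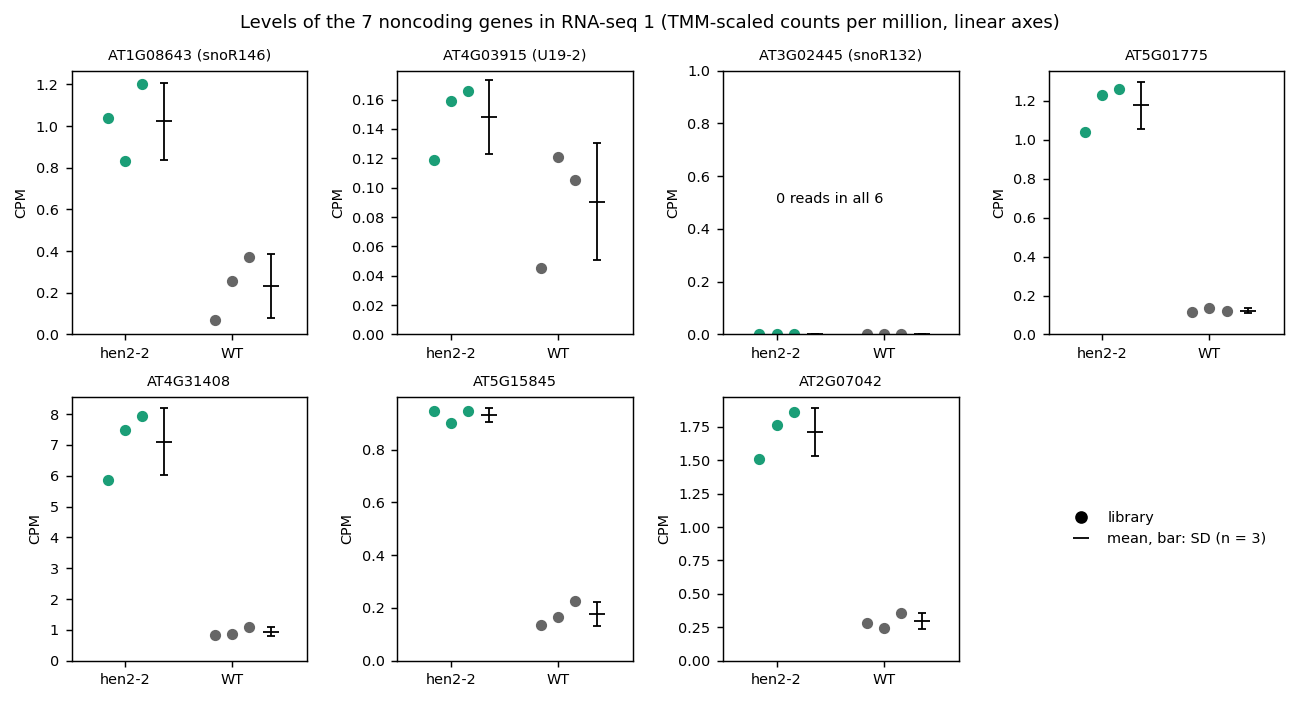
Levels of the 7 genes in RNA-seq 1. Each panel is a gene, the y axis is CPM on a linear scale, points are libraries and the bar is the mean ± SD of 3. hen2-2 libraries lay above WT libraries for 5 genes, U19-2 overlapped, and snoR132 had 0 reads in all 6 libraries.

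Estimates per transcript in RNA-seq 1 divided AT4G31408 over its 3 transcripts, with 54.6, 73.2 and 64.8% of the reads on the 1190-base transcript in hen2-2 and 51.5, 34.9 and 0% of few reads in WT. The effective length assigned to the snoRNA genes was short, 22.0 to 26.6 bases for the 127 bases of snoR146. Levels of the snoRNA genes and of the long genes are not compared with each other. In both experiments, counts per gene cannot tell a mature snoRNA from a longer transcript that holds it.

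Relatives by sequence were not themselves used to choose the genes, and they were tested. Their counts can hold reads of the chosen genes they resemble, above all for snoR131 and AT4G31351, the most alike. The p-values of the relatives are therefore not independent of the choice of the genes. By their means, SNOR105 and SNOR108 had the order of genotypes that snoR146 had. SNOR105 had 11.5, 30.7 and 17.5 CPM in se-2 hen2-2, 2.57, 9.47 and 6.22 CPM in se-2, 10.8, 15.0 and 26.9 CPM in hen2-2 and 2.30, 2.34 and 3.87 CPM in WT. It was higher in se-2 hen2-2 than in WT by 2.81 ± 0.52 (edgeR, adjusted p = 0.017), where 1.71% of all genes were called higher. SNOR108 had 44.5, 108 and 85.8 CPM in se-2 hen2-2, 5.51, 23.0 and 21.8 CPM in se-2, 40.1, 48.9 and 105 CPM in hen2-2 and 4.00, 5.35 and 13.5 CPM in WT. It was higher in se-2 hen2-2 by 3.39 ± 0.65 (edgeR, adjusted p = 0.018). In deep libraries se-2 was close to WT for both genes. SNOR105 had 2.57 CPM there in se-2 against 2.30 and 2.34 in WT, and SNOR108 5.51 against 4.00 and 5.35.

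In hen2-2 against WT of RNA-seq 2, SNOR105 differed by 2.63 ± 0.52 (adjusted p = 0.073) and SNOR108 by 3.09 ± 0.64 (adjusted p = 0.093). With the replicate number as a block over all libraries of RNA-seq 2, edgeR called both (2.56, adjusted p = 0.0027, and 3.15, adjusted p = 0.00068). There same-numbered hen2-2 and WT libraries also matched in depth. In RNA-seq 1 SNOR105 differed by 2.83 ± 0.53 (adjusted p = 0.064, or 2.85 and 0.0041 with the block) and SNOR108 by 1.26 ± 0.59 (adjusted p = 0.44). In se-2 hen2-2 against se-2 they differed by 1.71 (adjusted p = 0.19) and 2.25 (adjusted p = 0.15), and with the block by 1.77 and 2.39 (adjusted p = 0.01 and 0.0017). In se-2 against WT neither was called (1.1 and 1.14, adjusted p = 0.69 and 0.79). The reads of these alike genes may be shared with snoR146, at an identity of 85.4% for SNOR105 and 84.0% for SNOR108.

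U19 was called in no comparison by edgeR. In RNA-seq 2 it averaged 3.35 ± 0.876 CPM in se-2 hen2-2, 3.90 ± 0.869 CPM in se-2, 2.89 ± 0.578 CPM in hen2-2 and 3.89 ± 0.295 CPM in WT (SD, n = 3 each). Relative to WT, its log2 difference was -0.22 ± 0.24 in se-2 hen2-2, 0.00 ± 0.24 in se-2 and -0.42 ± 0.24 in hen2-2 (edgeR, adjusted p 0.76 to 1.0), and every hen2-2 library lay below every WT library. In RNA-seq 1 it averaged 0.194 ± 0.0233 CPM in hen2-2 and 0.433 ± 0.10 CPM in WT, again without overlap (-1.14 ± 0.28, edgeR adjusted p = 0.13). snoR131, next to snoR132, averaged 0.869 ± 0.235 CPM in se-2 hen2-2, 0.519 ± 0.206 CPM in se-2, 0.921 ± 0.693 CPM in hen2-2 and 0.155 ± 0.0508 CPM in WT, a difference of 2.49 ± 0.63 in se-2 hen2-2 (adjusted p = 0.067) and 2.57 ± 0.63 in hen2-2 (adjusted p = 0.19) by edgeR. DESeq2 called snoR131 (AT3G02435) in both (adjusted p = 0.0028 in se-2 hen2-2 and 0.0052 in hen2-2). Like snoR132, it had 0 reads in RNA-seq 1.

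AT4G31408 has an inverted copy about 25 kb away (chr4:15216338-15217642, 96.8% identity over its whole length). Most of the copy is covered by AT4G03315 (chr4:15216367-15217455), annotated as miscellaneous RNA, for which no level is available. The gene counted there is AT4G31351 (chr4:15217257-15217884), annotated as protein coding. It covers only part of the copy and runs past its end, so its level is not that of the whole copy. It had 3.83, 5.21 and 3.54 CPM in se-2 hen2-2, 0.411, 0.418 and 0.367 CPM in se-2, 2.82, 3.25 and 4.09 CPM in hen2-2 and 0.426, 0.303 and 0.439 CPM in WT. It was higher than WT by 3.43 ± 0.27 in se-2 hen2-2 (adjusted p = 0.00011) and by 3.12 ± 0.27 in hen2-2 (adjusted p = 0.00055), and by 2.77 ± 0.25 in hen2-2 of RNA-seq 1 (adjusted p = 0.013). In se-2 it differed by 0.04 ± 0.26 (adjusted p = 1.0).

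Unlike AT4G31408, AT4G31351 was not called between se-2 hen2-2 and hen2-2 (0.31 ± 0.24, adjusted p = 0.76). It was lower in se-2 than in hen2-2 (-3.08 ± 0.27, adjusted p = 0.00064) and higher in se-2 hen2-2 than in se-2 (3.39 ± 0.27, adjusted p = 0.00041). Whether the 2 loci differ in this was not tested. At the identity of the copies their reads cannot be told apart with certainty, and the shares assigned to each are those of the counting programs. The p-values of AT4G31351 are therefore not independent of the choice of AT4G31408.

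The genes next to the 7 were examined as well: 21 genes that overlap them or are the nearest on each side, 18 of them tested in RNA-seq 2. In se-2 hen2-2 against WT 3 of 18 were called higher and none lower (background 1.71%), with a median of 0.40. They were AT4G03905, AT4G31405 and AT5G15843. AT4G03905 contains U19-2 and can share its reads, and AT4G31405 may share a transcript with AT4G31408. The count is therefore not independent of the choice of the 7. AT4G31405, annotated as protein coding, begins 14 bp downstream of AT4G31408 on the same strand and holds stretches related to it (up to 79.5% identity). The junction is shown with the bases between the annotated genes in capitals.
AT4G31408 to AT4G31405, chr4:15241613-15241746, minus strand: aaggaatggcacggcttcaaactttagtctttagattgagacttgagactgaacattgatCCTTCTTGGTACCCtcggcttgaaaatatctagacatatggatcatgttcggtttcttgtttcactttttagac

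AT4G31405 had 1.57, 1.32 and 1.72 CPM in se-2 hen2-2, 0.101, 0.0464 and 0 CPM in se-2, 1.74, 1.51 and 1.57 CPM in hen2-2 and 0.0992, 0.0834 and 0.228 CPM in WT. It was not called between se-2 hen2-2 and hen2-2 (-0.06 ± 0.60, adjusted p = 0.99), and was higher in se-2 hen2-2 than in WT (3.52 ± 0.69, adjusted p = 0.02) and than in se-2 (4.78 ± 0.74, adjusted p = 0.013). In hen2-2 it was higher than in WT in RNA-seq 1 (2.96 ± 0.31, adjusted p = 0.014), and in RNA-seq 2 with the block (3.61, adjusted p = 0.029) but not without it (3.59 ± 0.69, adjusted p = 0.062). A transcript that continues from AT4G31408 and a separate transcript cannot be told apart in counts per gene.

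AT4G03905, the long noncoding gene that contains U19-2, had 4.60, 4.81 and 4.27 CPM in se-2 hen2-2, 2.12, 2.43 and 2.87 CPM in se-2, 3.47, 4.46 and 3.59 CPM in hen2-2 and 1.63, 2.24 and 1.59 CPM in WT. It was higher in se-2 hen2-2 than in WT by 1.32 ± 0.21 (adjusted p = 0.0078). In hen2-2 it differed from WT by 1.07 ± 0.21 (adjusted p = 0.07, or 1.08 and 0.024 with the block), and se-2 hen2-2 differed from se-2 by 0.88 ± 0.21 (adjusted p = 0.088, or 0.89 and 0.028 with the block). snoR138 (AT4G03925), 30 bp downstream of U19-2, differed by 0.79 ± 0.27 in se-2 hen2-2 (adjusted p = 0.17). Overlapping genes on the same strand share reads, so the levels of U19-2 and AT4G03905 are not independent.

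The snoRNAs inside AT5G01775 have counts of their own. They lie on its strand and can share reads with it, so their levels and that of AT5G01775 are not independent. snoR141 had 4.24, 10.3 and 9.29 CPM in se-2 hen2-2 and 1.64, 1.86 and 2.65 CPM in WT, 3.88-fold (adjusted p = 0.081). SNOR77 had 12.4, 22.5 and 14.3 CPM in se-2 hen2-2 and 5.51, 7.11 and 11.1 CPM in WT, a difference of 1.05 ± 0.34 (adjusted p = 0.16). Both lay above WT in every library. Neither was called by edgeR, and DESeq2 called snoR141 (adjusted p = 0.0057). With the block they were called in se-2 hen2-2 against se-2, snoR141 at 1.58 (adjusted p = 0.013) and SNOR77 at 0.96 (adjusted p = 0.031), and SNOR77 in hen2-2 of RNA-seq 1 at 1.16 (adjusted p = 0.036). Whether AT5G01775 differs in fold change from the snoRNAs it spans was not tested.

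Around AT5G15845, the gene upstream on the same strand is AT5G15843, annotated as protein coding. It had 0.948, 1.72 and 0.354 CPM in se-2 hen2-2, 0.476, 0.294 and 0.566 CPM in se-2 and 0.21, 0.215 and 0.248 CPM in hen2-2. The WT libraries had 0, 5 and 0 counts. Against WT, edgeR called it higher in se-2 hen2-2 (adjusted p = 0.016) but not in se-2 (adjusted p = 0.11) or hen2-2 (adjusted p = 0.28). DESeq2 also called it in se-2 (adjusted p = 0.00017) and hen2-2 (adjusted p = 0.01). COL1, on the other strand, had 0.474, 3.45 and 5.86 CPM in se-2 hen2-2, 0.613, 5.50 and 6.42 CPM in se-2, 0.434, 4.47 and 5.64 CPM in hen2-2 and 0.674, 4.20 and 8.23 CPM in WT. Replicate 1 was low in all 4 genotypes and COL1 differed by -0.43 ± 1.11 in se-2 hen2-2 (adjusted p = 0.92). AT5G15845 did not show this pattern. The strand setting of the counting is not given in the sources used here, so reads of the 2 strands cannot be told apart with certainty where the genes overlap. CO was near 0 in RNA-seq 2, with 0.0676 ± 0.0587 CPM in se-2 hen2-2 and 0.142 ± 0.118 CPM in WT. With the block, hen2-2 of RNA-seq 1 had more CO (1.49, adjusted p = 0.014) and less COL1 (-0.64, adjusted p = 0.031) than WT, and neither passed without it (1.40 and -0.53, adjusted p = 0.25 and 0.81).

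**Figure D4:**
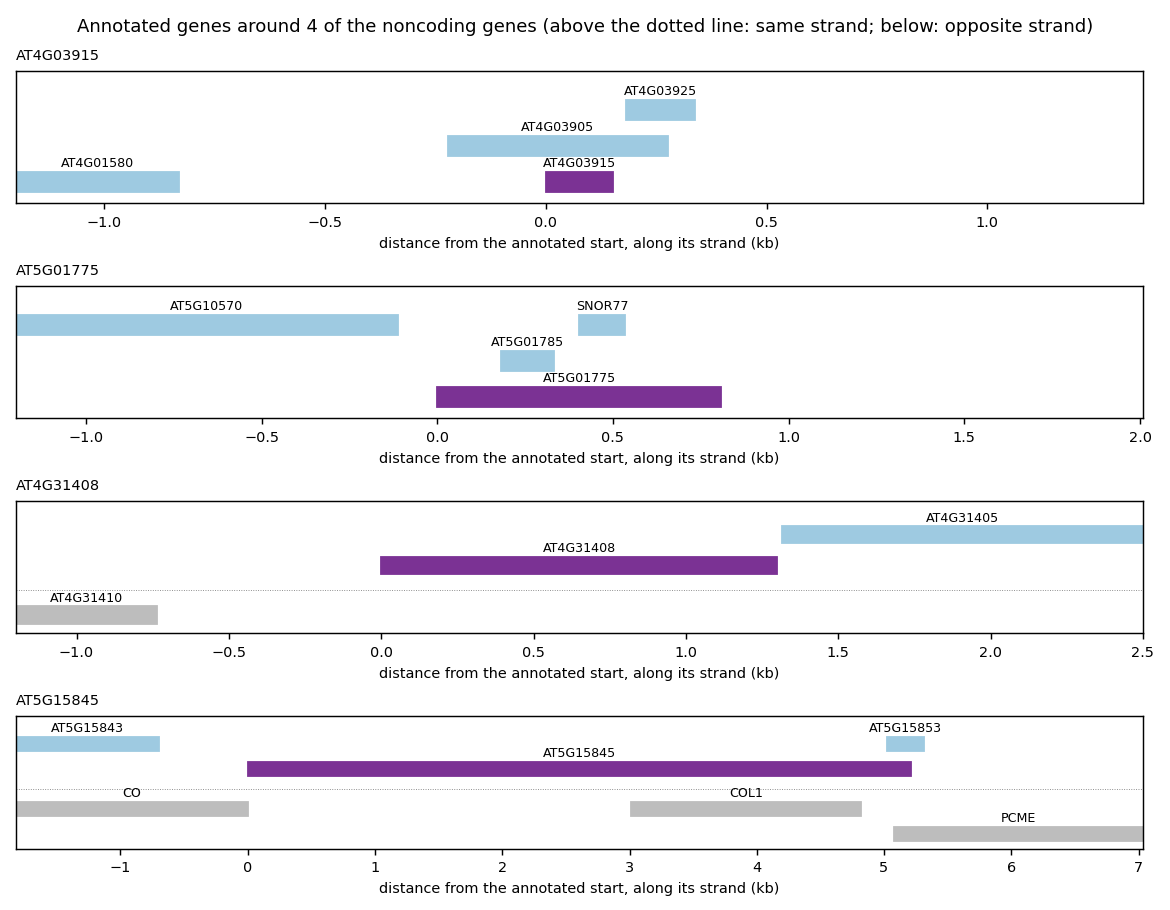
Annotated genes around 4 of the 7 genes. The x axis is the distance in kb from the annotated start along the gene's strand, bars are genes (purple, the noncoding gene), and genes under the dotted line are on the opposite strand. AT4G03915 lies in AT4G03905, AT5G01775 spans snoR141 and SNOR77, AT4G31405 starts 14 bp after AT4G31408, and AT5G15845 runs antisense across COL1.

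**Figure D5:**
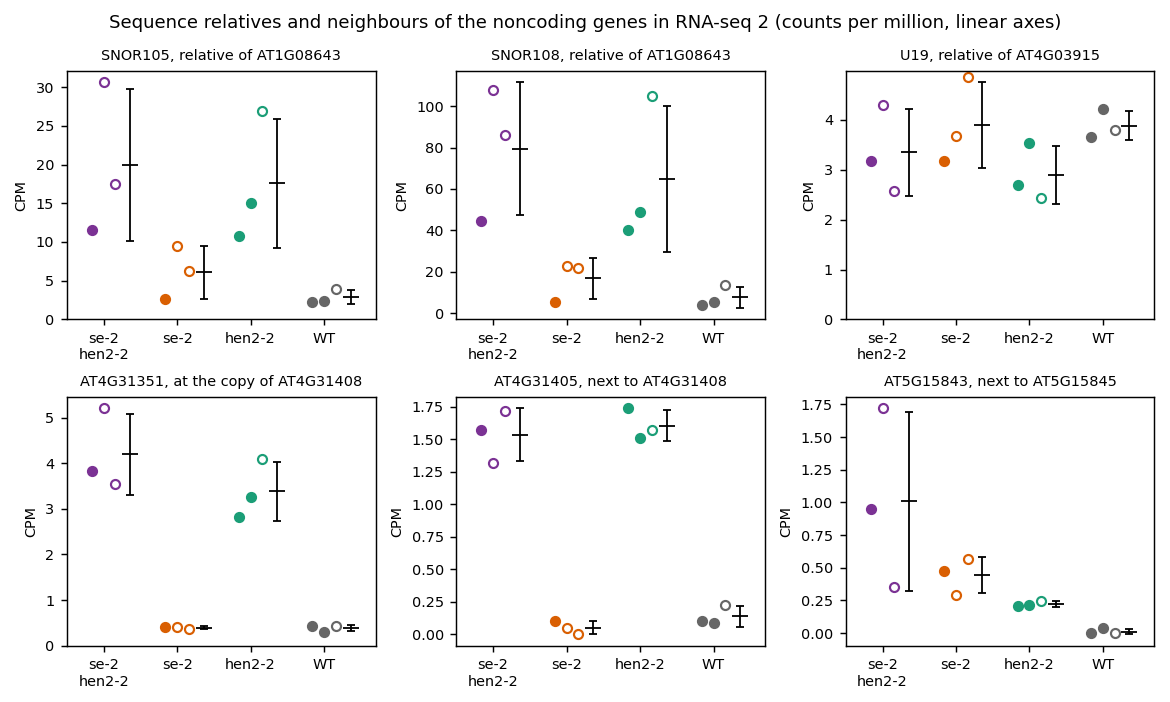
Levels of 4 sequence relatives and 2 neighbours in RNA-seq 2. The y axis is CPM on a linear scale, points are libraries (filled, over 100 M counts), and the bar is the mean ± SD of 3. SNOR105, SNOR108, AT4G31351 and AT4G31405 were high in se-2 hen2-2 and hen2-2, U19 averaged 2.89 to 3.90 CPM over the genotypes, and AT5G15843 was at or near 0 in WT.

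To place the 7 genes among their kind, the annotated classes were counted with the 7 left out. Of 213 other snoRNA genes tested, 11 were called higher in se-2 hen2-2 than in WT (5.16%, against 1.71% of all genes), with a median log2 fold change of 1.13 and 205 above 0. In hen2-2 of RNA-seq 2, 3 of 213 were called higher (1.41%, against 0.298%; 12 with the block) with a median of 0.65, and in RNA-seq 1 8 of 94 (8.51%, against 1.1%; 31 higher and 5 lower with the block). In se-2 none was called by edgeR, 9 were at an unadjusted p under 0.05 and DESeq2 called 1, with a median of 0.38. The medians of the 3 snoRNA genes described here were 3.39, 2.70 and 1.68 in the same RNA-seq 2 comparisons, which their choice fixes. The part of library depth in these class medians was not tested.

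Among other snoRNA genes, chosen by the number of comparisons in which they were called, snoR158b (AT2G08760) averaged 29.8 ± 2.84 CPM in se-2 hen2-2, 22.5 ± 1.80 in se-2, 33.5 ± 0.678 in hen2-2 and 15.9 ± 0.905 in WT. It was higher than WT by 0.91 ± 0.14 in se-2 hen2-2 (adjusted p = 0.0064) and by 1.08 ± 0.14 in hen2-2 (adjusted p = 0.0057). The U3 snoRNA genes AT5G54075 and AT5G53902, which take part in cleavage of the ribosomal RNA precursor, were higher by 1.56 ± 0.20 and 1.29 ± 0.18 in se-2 hen2-2 (adjusted p = 0.002 and 0.0038) and by 1.23 ± 0.19 and 1.04 ± 0.18 in hen2-2 (adjusted p = 0.021 and 0.035). In se-2 they differed by 0.03 and -0.03 (adjusted p = 1.0 for both). The U3 copies are alike, so counts may be divided between them.

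Of 308 other long noncoding genes tested in RNA-seq 2, 20 were called higher and 1 lower in se-2 hen2-2 than in WT (6.49% higher), 3 higher in hen2-2 (14 with the block), and none in se-2, where 29 were at an unadjusted p under 0.05 and DESeq2 called 3 higher and 4 lower. In RNA-seq 1, 39 of 309 were called higher in hen2-2 (12.6%). AT1G79529, antisense to AT1G79530, averaged 1.53 ± 0.36 CPM in se-2 hen2-2, 0.174 ± 0.0804 in se-2, 2.20 ± 0.277 in hen2-2 and 0.322 ± 0.106 in WT. Like AT4G31408, it was higher in se-2 hen2-2 than in se-2 (3.15 ± 0.43, adjusted p = 0.0063) and lower in se-2 than in hen2-2 (-3.66 ± 0.44, adjusted p = 0.0041). AT4G05285 averaged 3.20 ± 1.51 CPM in se-2 hen2-2, 0.00962 ± 0.0167 in se-2, 1.34 ± 0.719 in hen2-2 and 0.0276 ± 0.0266 in WT. AT3G59068 averaged 123 ± 31.1 CPM in se-2 hen2-2, 42.6 ± 16.2 in se-2, 59.6 ± 22.2 in hen2-2 and 22.5 ± 8.46 in WT, and was higher in se-2 hen2-2 than in WT by 2.45 ± 0.38 (adjusted p = 0.0068).

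Of 101 other noncoding RNA genes tested in RNA-seq 2, 9 were called higher in se-2 hen2-2 than in WT (8.91%), 2 in hen2-2 (6 with the block) and none in se-2 (15 at an unadjusted p under 0.05, and 1 higher and 4 lower by DESeq2). AT1G64563 averaged 3.46 ± 0.0980 CPM in se-2 hen2-2, 0.774 ± 0.180 in se-2, 2.94 ± 0.511 in hen2-2 and 0.430 ± 0.101 in WT, and was higher than WT by 3.01 ± 0.28 in se-2 hen2-2 (adjusted p = 0.00028) and 2.77 ± 0.28 in hen2-2 (adjusted p = 0.0017). AT2G18440 averaged 31.5 ± 1.80 CPM in se-2 hen2-2, 9.94 ± 0.496 in se-2, 39.0 ± 7.22 in hen2-2 and 13.9 ± 2.78 in WT, and was higher than WT by 1.18 ± 0.19 in se-2 hen2-2 and 1.49 ± 0.19 in hen2-2 (adjusted p = 0.0078 and 0.0057). AT4G30975 was higher in se-2 hen2-2 (4.04 ± 0.91, adjusted p = 0.04) and, in RNA-seq 1, in hen2-2 (2.65 ± 0.45, adjusted p = 0.049). Of the 7 genes, AT5G15845 and AT2G07042 (2 of 7) had se-2 libraries that did not overlap WT, which their choice fixes, against 6.36% of all genes higher and 6.5% lower. Over all genes, 0.267% were called higher and 0.0565% lower in se-2 than in WT.

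Few genes of the decay machinery and no gene for a snoRNA-bound protein were called. Of 22 genes of NEXT, the cap binding complex and the nuclear exosome, all tested, 1 was called higher and 2 lower in se-2 hen2-2 than in WT, and the median was -0.10. Those lower were HEN2 (-1.21 ± 0.25, adjusted p = 0.026) and SE (-1.05 ± 0.18, adjusted p = 0.012), and DESeq2 also called RRP44A (AT2G17510) lower (-0.96, adjusted p = 0.0056). The one higher was RRP46, a core exosome subunit (1.73 ± 0.28, adjusted p = 0.0079), which was also higher in hen2-2 of RNA-seq 1 (1.07 ± 0.14, adjusted p = 0.022). Against WT in RNA-seq 2, edgeR called HEN2 in hen2-2 (-1.43 ± 0.25, adjusted p = 0.038) and SE in se-2 (-1.16 ± 0.18, adjusted p = 0.024). DESeq2 also called RRP46 higher in hen2-2 (adjusted p = 0.0033) and in se-2 (adjusted p = 0.0016), and edgeR with the replicate block called it in hen2-2 (adjusted p = 0.010). Of the 13 genes for proteins bound to snoRNAs, among them fibrillarin (FIB1, FIB2), NOP56 and CBF5, 12 were tested in RNA-seq 2. None was called in any comparison by edgeR or DESeq2, none had an unadjusted p under 0.05 in either, and medians were -0.03 to 0.13.

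The genes whose levels were most like the mean profile of the 7 over the 12 libraries of RNA-seq 2 are a description only, since the profile follows genotype and depth. They were the snoRNA gene snoR102 (AT1G09027, Pearson r = 0.971), U4atac (r = 0.968), the long noncoding genes AT3G59068 (r = 0.958) and AT5G18255 (r = 0.952), and AT5G01030 (r = 0.953), out of 19454 genes. U4atac averaged 83.3 ± 18.6 CPM in se-2 hen2-2, 42.4 ± 15.1 in se-2, 50.8 ± 14.1 in hen2-2 and 20.4 ± 4.73 in WT. snoR102 averaged 7.93 ± 2.40 CPM in se-2 hen2-2, 3.67 ± 1.13 in se-2, 4.61 ± 1.40 in hen2-2 and 1.85 ± 0.432 in WT. U4atac is the gene whose promoter was set beside those of the snoR146 family above. Of the 30 snRNA genes with the element, 10 were called higher in se-2 hen2-2 than in WT (33.3%, against 1.71% of all genes), with a median of 1.24 and all 30 above 0. In hen2-2 none was called by edgeR, 13 were at an unadjusted p under 0.05, and the median was 0.59. DESeq2 called 7 higher and edgeR with the replicate block 5. In RNA-seq 1, where 16 of the 30 were tested, edgeR called 2 higher and 1 lower in hen2-2, and the median was -0.53. With the block 3 were higher and 6 lower, and by DESeq2 2 were higher and 4 lower. The snRNA genes without the element were not counted beside these, so whether the rise goes with the element was not tested. The 30 include U6acat, whose match begins 15 bases past the annotated start. SNOR105 and SNOR108 had log2 fold changes of 2.81 and 3.39 in se-2 hen2-2 and 2.63 and 3.09 in hen2-2.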

How the data were processed

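Leaf RNA of Col-0 plants was measured in 18 libraries, 6 in RNA-seq 1 and 12 in RNA-seq 2. Per the authors' methods, reads were trimmed and ribosomal reads removed. RNA-seq 2 reads were aligned to TAIR10 with HISAT2, assembled with StringTie and deposited as counts per gene. These derive from coverage, and the commonest count above 0 is 4 in every library, so a count is not 1 fragment. RNA-seq 1 reads were assigned to transcripts with Salmon and deposited by the authors as estimated counts and TPM per transcript. The submitters' processing notes name no versions, and the strand setting is not given in the sources used here.

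Estimated counts were summed per gene and rounded (60.5% of those above 0 were not whole). edgeR 4.0.16 in R 4.3.3 fitted each experiment whole, with TMM scaling, its default filter on low counts, the quasi-likelihood F test and Benjamini-Hochberg adjustment (threshold 0.05). In RNA-seq 2, 19454 genes were tested, among them all 7 described here, and in RNA-seq 1 19506, among them 6. Alternatives were DESeq2 1.42.0, limma 3.58.1 on log2 TPM, other size factors, no filter, no organelle genes, the compared genotypes alone, a depth term, a replicate block and leaving out each library. The method was tested on simulated data. P-values measure the spread between biological replicates of 1 experiment.

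Replicate numbers were taken to pair 2 genotypes where every same-numbered pair deviated together (r over 0.1). This held for hen2-2 and WT in RNA-seq 1 (0.349 to 0.688) and RNA-seq 2 (0.279 to 0.497) and for se-2 hen2-2 and se-2 (0.127 to 0.532).

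The 7 genes, the lists and the comparisons were chosen with earlier results of these data known. Other genes named are the neighbours, HEN2 and SE, the 3 genes of each class called in the most comparisons against WT, and the 5 genes most correlated with the mean profile of the 7. Sequence relatives (blastn 2.17.0, Biopython 1.88) and the upstream sequence element were added after the data had been seen. Sequences, positions and names are from RefSeq TAIR10.1, in which 13 of 13 transcript lengths matched the files. The limit given for 0 reads in RNA-seq 1 covers counting error only.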

Additional observations from a re-analysis of the deposited data

How the results depend on the processing

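Of 525 values of the 7 genes between mutants and in the interaction, 475 kept their direction and their side of the threshold, 12 gained a call, 28 lost one and 10 changed sign. Of 477 values against WT, 459 moved by less than the spread between replicates, 16 by more and 2 changed sign. Signs changed only when a library was left out. AT2G07042 in se-2 hen2-2 against se-2 ranged from -0.3 to 0.33, AT3G02445 in se-2 against hen2-2 from -1.13 to 0.28, and AT5G01775 in the interaction from -0.35 to 0.78. Against WT, AT5G01775 in se-2 ranged from -0.09 to 1.03 and AT4G31408 in se-2 from -0.44 to 0.11. The shallowest library of RNA-seq 2 held 47.7 M counts. With limma on log2(TPM + 1), AT5G15845 in hen2-2 of RNA-seq 1 was 0.17.

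The number of genes called depended on the fit. With DESeq2 it was 523 in se-2 hen2-2 against hen2-2 (edgeR 103), 626 in se-2 hen2-2 against se-2 (172), 379 in se-2 against hen2-2 (91), 144 in the interaction (3), 270 in hen2-2 against WT (60), 352 in se-2 against WT (63), 1216 in se-2 hen2-2 against WT (463) and 971 in RNA-seq 1 (263). With a depth term the same order gave 310, 432, 183, 9, 138, 124 and 810 for RNA-seq 2. With the compared genotypes alone it gave 26, 55, 10, 25, 5 and 163, and the interaction could not be fitted. Leaving out 1 library gave 17 to 100, 48 to 160, 33 to 98, 0 to 4, 23 to 61, 16 to 71, 159 to 460 and, in RNA-seq 1, 0 to 268. The cause was not tested.

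With the replicate block the counts were 718, 726, 429, 84, 179, 397 and 1564 in RNA-seq 2 and 2394 in RNA-seq 1. For genotypes that share only a number, the block called AT1G08643 (adjusted p = 0.019), AT4G03915 (adjusted p = 0.018) and AT5G01775 (adjusted p = 0.039) in se-2 against hen2-2 by edgeR. In se-2 hen2-2 against WT it called snoR141 (AT5G01785, adjusted p = 0.0034), SNOR77 (AT5G10572, adjusted p = 0.011) and snoR131 (AT3G02435, adjusted p = 0.025).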
